A study of Mus musculus with 12 samples.

Results

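The 10 genes described here encode apolipoproteins: APOA1, APOA2, APOA4, APOA5, APOB, APOC1, APOC3, APOE, APOH and APOM. They were taken by their symbols, and all 10 were found among the 36292 gene symbols of the deposited table and among the 15836 genes that were tested. The RNA came from tumors that grew from cells of Hep3B, a line of human hepatocellular carcinoma, injected under the skin with Matrigel in the flank of female BALB/c nu/nu mice about 8 weeks old. One group of 3 mice received the FGFR4-selective kinase inhibitor H3B-6527 at 300 mg/kg, one received the multikinase inhibitor lenvatinib at 10 mg/kg, one received both agents at these doses, and one received vehicle. Dosing by oral gavage, once daily, began near a mean tumor volume of 500 mm3, and each tumor was collected 8 hours after dose 4, and RNA was taken from a fragment of it. Athymic nu/nu mice lack mature T cells but keep other immune cells and supply the blood vessels and stroma of the tumor. All 12 tumors came from 1 cell line.

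Apolipoproteins are the protein part of the particles that carry lipid in blood, and hepatocytes secrete most of them. APOB is the structural protein of very low density and low density lipoprotein, APOA1 and APOA2 are the main proteins of high density lipoprotein (HDL), and smaller proteins such as APOC3, APOA5 and APOE exchange between particles and set how fast triglyceride is hydrolysed and how fast remnants are taken up by receptors. The genes APOA1, APOC3, APOA4 and APOA5 lie next to each other in one human gene cluster, and APOE and APOC1 lie in another, together with APOC4 and APOC2. FGFR4, the receptor that H3B-6527 inhibits, carries the intestinal signal FGF19 that represses bile acid synthesis in the liver.

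Library totals ran from 23.8 to 40.9 M estimated counts, and H3B-6527 replicate 3 was the smallest. Levels are given as counts per M of the library total after TMM scaling (CPM). These values are not divided by transcript length, so levels are compared between groups and not between genes. The 10 hepatocyte markers looked up, among them ALB and HNF4A, were all present. ALB was the largest part of their summed level. This sum ran from 115000 to 177000 CPM in H3B-6527 tumors and from 73500 to 93600 in lenvatinib tumors. It ran from 145000 to 166000 in combination tumors and from 67000 to 73800 in vehicle tumors. In H3B-6527 over vehicle tumors 8 of the 10 rose (adjusted p under 0.05, edgeR), beside 25.2% of all tested genes. Their median log2 fold change was 1.2. AHSG (−0.24) and SERPINA1 (0.24) did not pass. The part of these hepatocyte marker differences in those of the apolipoproteins was not tested. DUSP6, a phosphatase gene induced by FGF receptor signalling through ERK, had 2.70, 5.07 and 7.62 CPM in H3B-6527 replicates 1, 2 and 3, and 6.04, 9.71 and 15.8 CPM in the combination replicates, against 77.7, 92.9 and 71.1 CPM in the vehicle replicates. In lenvatinib tumors it had 62.0, 97.9 and 92.9 CPM. In bulk tumor RNA, fewer cells of a type and less RNA per cell cannot be told apart. Of the 6 fibroblast markers, 4 were tested and 3 fell in H3B-6527 over vehicle tumors, COL3A1 by 3.18, COL1A2 by 1.49 and PDGFRB by 0.69 on the log2 scale, and the same 3 fell in combination over vehicle and over lenvatinib tumors. The list summed to 26.9 to 36.3 CPM in H3B-6527 tumors, 48.5 to 54 in lenvatinib tumors, 31.6 to 36.3 in combination tumors and 50.2 to 55.9 in vehicle tumors, most of it PDGFRB, and DCN and LUM were near 0 in all groups. All 6 endothelial markers in the table were under 1 CPM in every group and summed to 0.231 to 0.569 CPM in H3B-6527 tumors, 0.449 to 0.667 in lenvatinib tumors, 0.414 to 0.584 in combination tumors and 0.535 to 1.09 in vehicle tumors; CLDN5, the 1 that was tested, fell by 1.96 in H3B-6527 over vehicle tumors. The part of these differences in those of the apolipoproteins was not tested.

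H3B-6527 tumors were set against vehicle tumors to ask how FGFR4 inhibition alone changes the apolipoprotein transcripts. APOC3, APOA5, APOA4, APOA1, APOH and APOE rose, APOA2 and APOM fell, and APOB and APOC1 did not pass the test. The 8 members that passed (adjusted p under 0.05, edgeR's quasi-likelihood test with Benjamini-Hochberg adjustment over all tested genes) stood against a background in which 49.4% of all tested genes passed, 25.2% higher and 24.3% lower in H3B-6527 tumors. The share of members that passed in the downward direction, 2 of 10, is therefore near the background. Of the 6 that rose, 5 did so by at least 2-fold, a class that held 9.12% of all tested genes. The median log2 fold change of the 10 members was 0.95, against 0.01 over all tested genes and 1.2 over the 10 hepatocyte markers.

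**Figure D1:**
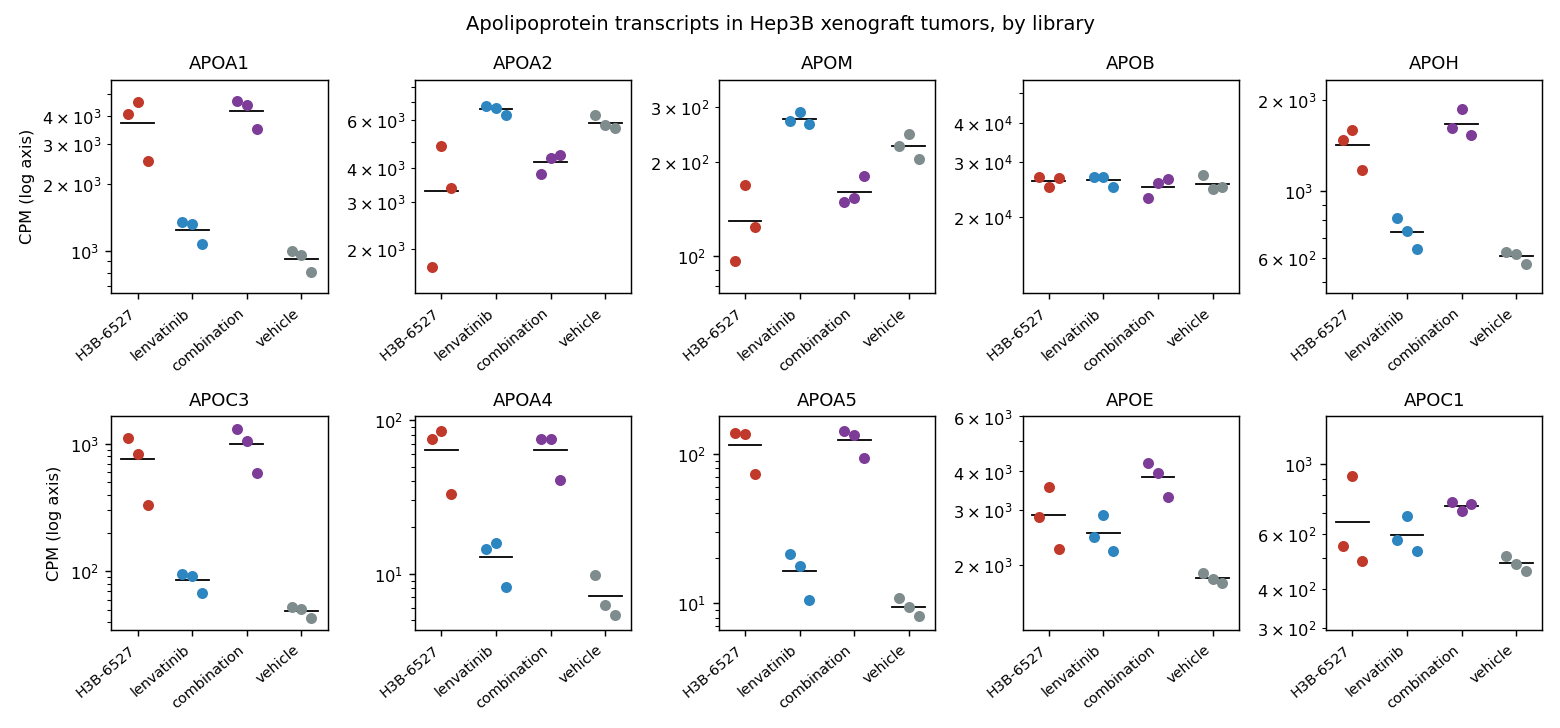
Level of each apolipoprotein transcript in CPM (y axis, log scale, own range for each gene) in the 3 tumors of each group; points are tumors, in replicate order from left to right, and lines are group means. APOC3, APOA4, APOA5, APOA1 and APOH were higher in every H3B-6527 and combination tumor than in any lenvatinib or vehicle tumor, APOM was lower in each of them, and APOB spanned 23050 to 27200 CPM in all 12.

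Among the HDL proteins, APOA1 and APOA2 changed in opposite directions. APOA1, the HDL scaffold and activator of the cholesterol-esterifying enzyme LCAT, had 4106, 4602 and 2509 CPM in H3B-6527 replicates 1, 2 and 3, 1345, 1317 and 1074 CPM in the lenvatinib replicates, 4646, 4492 and 3491 CPM in the combination replicates, and 997, 956.5 and 809 CPM in the vehicle replicates. Every H3B-6527 and combination tumor lay above every vehicle tumor, and H3B-6527 replicate 3 was the lowest of its group. The log2 fold change of APOA1 in H3B-6527 tumors over vehicle tumors was 2.02 ± 0.20 (SE, adjusted p = 8.17e-06), a 4.06-fold rise.

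APOA2, the other major HDL protein, had 1709, 4811 and 3367 CPM in H3B-6527 replicates 1, 2 and 3, 6792, 6695 and 6281 CPM in the lenvatinib replicates, 3784, 4348 and 4466 CPM in the combination replicates, and 6295, 5753 and 5627 CPM in the vehicle replicates. All H3B-6527 and combination tumors were below all vehicle tumors, but the H3B-6527 tumors spread over a 2.82-fold range, against 1.12-fold among vehicle tumors. APOA2 fell by 0.84 ± 0.26 on the log2 scale in H3B-6527 tumors (adjusted p = 0.0194). This call was lost without the filter on low counts (adjusted p = 0.074), in a fit of H3B-6527 and vehicle tumors alone (0.0749) and without vehicle replicate 1 (0.0564). Without H3B-6527 replicate 1, the lowest tumor, the log2 fold change of APOA2 was −0.53 and the adjusted p was 0.00624.

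APOM, which carries sphingosine-1-phosphate on HDL, had 96.3, 168.3 and 124.1 CPM in H3B-6527 replicates 1, 2 and 3, 270.3, 288.6 and 265.2 CPM in the lenvatinib replicates, 149, 152.9 and 180.4 CPM in the combination replicates, and 224.2, 245.7 and 204.1 CPM in the vehicle replicates. The highest H3B-6527 tumor stayed below the lowest vehicle tumor, and replicate 1 was the lowest, as it was for APOA2. APOM fell by 0.79 ± 0.16 on the log2 scale in H3B-6527 tumors (adjusted p = 0.00143). Leaving out any single library kept the APOM call between H3B-6527 and vehicle tumors, with log2 fold changes from −1.03 to −0.62.

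APOB, the structural protein of triglyceride-rich lipoproteins, took the most counts of the 10 genes, with 26790, 25010 and 26760 CPM in H3B-6527 replicates 1, 2 and 3, 26880, 26830 and 24900 CPM in the lenvatinib replicates, 23050, 25640 and 26410 CPM in the combination replicates, and 27200, 24540 and 25000 CPM in the vehicle replicates. The 4 groups overlapped fully. The log2 fold change in H3B-6527 tumors was 0.03 ± 0.11 (adjusted p = 0.829), with a 95% interval from −0.21 to 0.28, so a change of 2-fold in either direction lay outside the interval.

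APOH, or beta-2-glycoprotein I, binds anionic phospholipid and circulates partly on lipoproteins. It had 1481, 1598 and 1171 CPM in H3B-6527 replicates 1, 2 and 3, 812.4, 737.8 and 642.7 CPM in the lenvatinib replicates, 1615, 1875 and 1536 CPM in the combination replicates, and 628.1, 618.5 and 570.2 CPM in the vehicle replicates. All vehicle tumors were lower than any tumor of the other groups. APOH rose by 1.23 ± 0.13 on the log2 scale in H3B-6527 tumors, a 2.34-fold rise (adjusted p = 1.25e-05).

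APOC3, APOA5 and APOA4 had the largest log2 fold changes of the 10 in H3B-6527 over vehicle tumors. APOC3, an inhibitor of lipoprotein lipase and of remnant uptake, had 1101, 837.5 and 330.5 CPM in H3B-6527 replicates 1, 2 and 3, 95.8, 91.06 and 67.37 CPM in the lenvatinib replicates, 1312, 1060 and 594.5 CPM in the combination replicates, and 52.89, 50.34 and 43.11 CPM in the vehicle replicates. Levels of APOC3 in H3B-6527 tumors covered a 3.33-fold range, yet the lowest of them was far above the highest vehicle tumor. The APOC3 log2 fold change was 3.96 ± 0.42 (adjusted p = 1.83e-05), a 15.5-fold rise, and it stayed between 3.58 and 4.31 when any single library was left out.

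APOA5, an activator of lipolysis by lipoprotein lipase, had 137.3, 136.6 and 73.04 CPM in H3B-6527 replicates 1, 2 and 3, 21.45, 17.61 and 10.49 CPM in the lenvatinib replicates, 142.8, 134.6 and 93.61 CPM in the combination replicates, and 10.75, 9.452 and 8.222 CPM in the vehicle replicates. The groups with H3B-6527 stood apart from the other tumors, and lenvatinib replicate 3 fell within the vehicle range. APOA5 rose by 3.61 ± 0.31 on the log2 scale in H3B-6527 tumors, a 12.2-fold rise (adjusted p = 4.78e-06). APOC3 and APOA5, which have opposite effects on lipoprotein lipase, thus rose together.

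APOA4, which in humans is made mainly by the intestine, had 75.34, 84.97 and 32.88 CPM in H3B-6527 replicates 1, 2 and 3, 14.36, 15.85 and 8.155 CPM in the lenvatinib replicates, 75.2, 75.85 and 41.04 CPM in the combination replicates, and 9.829, 6.242 and 5.332 CPM in the vehicle replicates. Every tumor given H3B-6527 had more APOA4 than any tumor not given it. The APOA4 log2 fold change in H3B-6527 tumors was 3.18 ± 0.41 (adjusted p = 9.35e-05), a 9.06-fold rise. Of the 7 enterocyte markers looked up, 5 were under 1 CPM in every group, among them FABP2 at a mean of 0.128 CPM. Their summed level, most of it from VIL1, ran from 292 to 376 CPM in H3B-6527 tumors and from 255 to 292 in vehicle tumors. Of the 3 that were tested, LCT (0.65) and VIL1 (0.29) rose on the log2 scale in H3B-6527 over vehicle tumors, and their part in the APOA4 result was not tested.

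Of the remnant-binding proteins, APOE rose and APOC1 did not pass the test. APOE, the ligand by which hepatic receptors recognise remnants, had 2867, 3578 and 2257 CPM in H3B-6527 replicates 1, 2 and 3, 2465, 2911 and 2222 CPM in the lenvatinib replicates, 4244, 3953 and 3315 CPM in the combination replicates, and 1893, 1812 and 1754 CPM in the vehicle replicates. No vehicle tumor reached the lowest tumor of any other group. The log2 fold change of APOE in H3B-6527 tumors was 0.67 ± 0.16, a 1.59-fold rise (adjusted p = 0.00395).

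APOC1, an inhibitor of cholesteryl ester transfer protein and neighbour of APOE, had 546, 920.7 and 490.5 CPM in H3B-6527 replicates 1, 2 and 3, 574.2, 685.5 and 527.1 CPM in the lenvatinib replicates, 755.8, 706.5 and 744.5 CPM in the combination replicates, and 509.6, 481 and 455.3 CPM in the vehicle replicates. H3B-6527 replicate 3 lay within the vehicle range and replicate 2 was the highest of the 12. Its log2 fold change in H3B-6527 tumors was 0.44 ± 0.19 (adjusted p = 0.0735, 95% interval from 0.02 to 0.85). The test was passed with DESeq2 (adjusted p = 0.0484), without H3B-6527 replicate 1 (0.0494) and without H3B-6527 replicate 3 (0.0105). Without H3B-6527 replicate 2, the highest tumor, the log2 fold change was 0.10 and the adjusted p was 0.485.

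Macrophages also make APOE and APOC1, and host macrophages can enter a xenograft. Of the 11 macrophage markers in the table, 8 were under 1 CPM in H3B-6527 tumors, 10 in lenvatinib tumors, 7 in combination tumors and 10 in vehicle tumors. C1QA and C1QC had 0 counts in all 12 libraries and C1QB had 1. The summed level of the list, most of it from CD68 at a mean of 127 CPM, ran from 133 to 204 CPM in H3B-6527 tumors, from 99.4 to 109 in lenvatinib tumors, from 150 to 187 in combination tumors, and from 84.2 to 115 in vehicle tumors. Of the 5 macrophage markers that were tested, TYROBP (10.9-fold, adjusted p = 3.81e-05) and CD68 (1.68-fold, adjusted p = 0.00213) rose in H3B-6527 over vehicle tumors. In combination over vehicle tumors TYROBP (12.5-fold), PTPRC (2.5-fold) and CD68 (1.7-fold) rose, and in combination over lenvatinib tumors TYROBP (7.11-fold) and CD68 (1.57-fold) rose. TYROBP averaged 3.02 CPM in H3B-6527 tumors, 0.487 in lenvatinib tumors, 3.5 in combination tumors and 0.28 in vehicle tumors. The part of these markers in the APOE and APOC1 values was not tested. How much RNA of mouse cells was counted under human symbols was not tested.

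**Figure D2:**
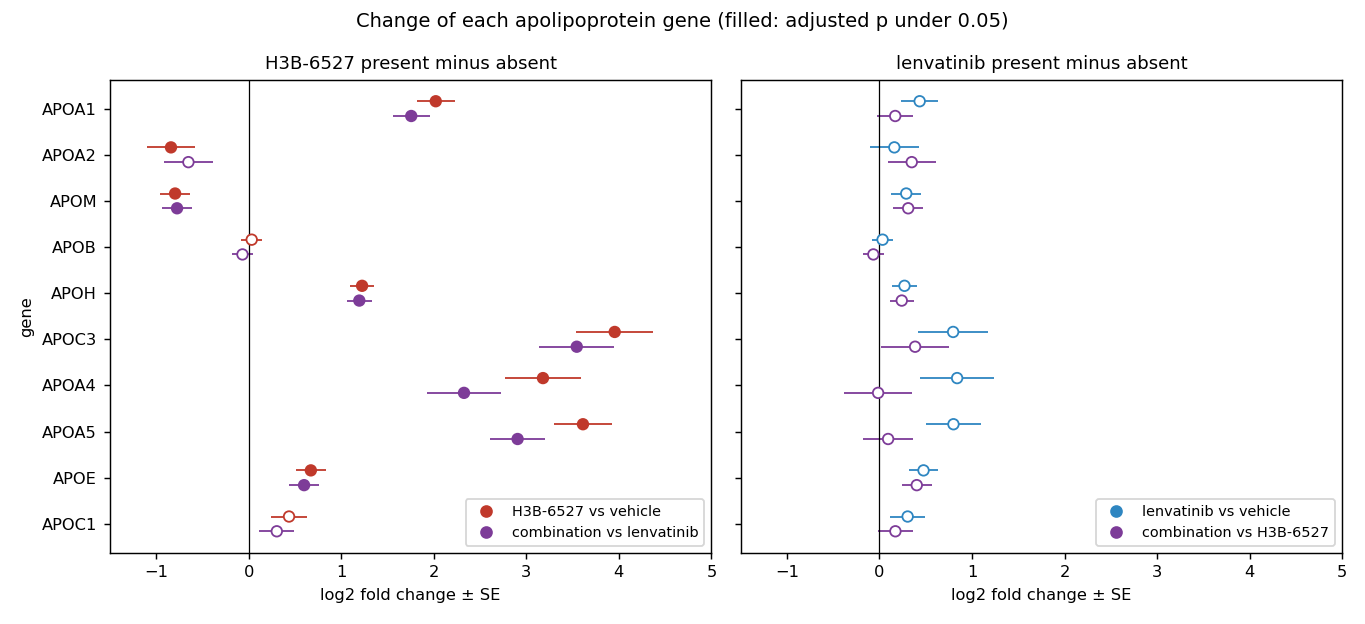
Log2 fold change ± SE of each member (rows) where H3B-6527 was present against absent (left) and where lenvatinib was present against absent (right); filled points passed adjusted p under 0.05. With H3B-6527 present, APOC3 reached 3.96 and APOM −0.79 over vehicle; with lenvatinib present, the points lay between −0.07 and 0.84 and none passed.

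Lenvatinib tumors were compared with vehicle tumors to give the effect of lenvatinib alone. No member passed the test, with adjusted p from 0.303 to 0.948, and 0% of all tested genes passed. At an unadjusted p under 0.05 the test gave 3 members, APOA1, APOA5 and APOE, beside 10.7% of all tested genes. Neither DESeq2 nor limma-voom called a member, and they called 1.55% and 0.0505% of all tested genes. All 10 log2 fold changes were positive, against 51.5% of all tested genes, with a median of 0.37 over the members and 0.01 over all tested genes. They were 0.84 ± 0.40 for APOA4, 0.80 ± 0.29 for APOA5, 0.80 ± 0.38 for APOC3, 0.48 ± 0.16 for APOE and 0.44 ± 0.20 for APOA1, and lay between 0.03 and 0.31 for the other 5. The 10 hepatocyte markers also all had positive values, from 0.14 for SERPINA1 to 0.67 for TF, with a median of 0.31, and none passed. For 6 members (APOA1, APOC1, APOC3, APOE, APOH and APOM) all lenvatinib tumors were above all vehicle tumors. Of all tested genes, 11.8% showed this pattern. In a fit of the lenvatinib and vehicle tumors alone, 2 members passed: APOC3 with a log2 fold change of 0.79 (adjusted p = 0.0414) and APOE with 0.47 (adjusted p = 0.044), beside 160 of all tested genes (1.01%). The 95% intervals of the 12-tumor fit reached up to 1.72 for APOA4 and 1.62 for APOC3, so a 2-fold rise of these lay within them.

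Combination tumors were compared with vehicle tumors to give the effect of both agents together. APOC3, APOA5, APOA4, APOA1, APOH, APOE and APOC1 rose and APOM fell, so that 8 members passed, beside 24.8% of all tested genes higher, 25.3% lower and 50.1% in either direction. APOC3 rose by 4.34 ± 0.42 on the log2 scale (20.3-fold, adjusted p = 1.23e-05), APOA5 by 3.71 ± 0.31, APOA4 by 3.17 ± 0.41, APOA1 by 2.19 ± 0.21, APOH by 1.47 ± 0.13 and APOE by 1.08 ± 0.16. The rise of APOC1, 0.61 ± 0.19 (adjusted p = 0.0179), did not pass without the filter on low counts (0.0556), without combination replicate 1 (0.0506) or without vehicle replicate 3 (0.0621). APOM fell by 0.48 ± 0.16 (adjusted p = 0.0237). APOM did not pass without combination replicate 1 (0.0839), combination replicate 2 (0.0775), vehicle replicate 1 (0.0548) or vehicle replicate 2 (0.0818). APOA2 differed by −0.49 ± 0.26 on the log2 scale (adjusted p = 0.141), although the highest combination tumor was below the lowest vehicle tumor. It passed in a fit of the combination and vehicle tumors alone (adjusted p = 0.000907), where 56.1% of all tested genes passed. APOA2 also passed without H3B-6527 replicate 1 (0.00319), where 55.3% of all tested genes did. The low APOA2 level of that replicate enters the spread that all groups share. APOB had −0.03 ± 0.11 (adjusted p = 0.841). H3B-6527 and combination tumors were set against the same 3 vehicle tumors, so the likeness of these values to those of H3B-6527 alone is not independent.

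Combination tumors were also compared with lenvatinib tumors, which shows what H3B-6527 added where lenvatinib was given and shares no tumor with the comparison of H3B-6527 and vehicle. Here 7 members passed, 6 higher and 1 lower, beside 19.1% of all tested genes higher, 20.9% lower and 40% in either direction. APOC3 rose by 3.55 ± 0.41 on the log2 scale (adjusted p = 9.5e-05), APOA5 by 2.91 ± 0.30, APOA4 by 2.33 ± 0.39, APOA1 by 1.76 ± 0.20, APOH by 1.20 ± 0.13 and APOE by 0.60 ± 0.16 (adjusted p = 0.0106), while APOM fell by 0.77 ± 0.16 (adjusted p = 0.00258). These are the 6 genes that rose, and 1 of the 2 that fell, in H3B-6527 over vehicle tumors. APOA2 differed by −0.65 ± 0.26 on the log2 scale (adjusted p = 0.0666) with every combination tumor below every lenvatinib tumor. It passed with library totals in place of TMM (adjusted p = 0.034) and with DESeq2 (0.0256), where 41.9% and 41.8% of all tested genes passed. APOA2 passed in a fit of the combination and lenvatinib tumors alone (0.000325), where 44.6% passed. It also passed without H3B-6527 replicate 1 (0.00063) or replicate 2 (0.0204), where 47% and 39.7% passed. APOC1 had 0.30 ± 0.19 (adjusted p = 0.222) and passed in the fit of these 2 groups alone (0.0232) and without H3B-6527 replicate 2 (0.0361). APOB had −0.07 ± 0.11 (adjusted p = 0.676).

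Combination and H3B-6527 tumors were compared to show what lenvatinib added to H3B-6527. No member passed by edgeR, DESeq2 or limma-voom. Of all tested genes, 0.0126% passed by edgeR, 0.619% by DESeq2 and 0.0126% by limma-voom. At an unadjusted p under 0.05, which 9.42% of all tested genes had, APOE was the 1 member, with a log2 fold change of 0.40 ± 0.16 and an adjusted p of 0.459. The 95% interval reached from −0.42 to 1.19 for APOC3 and from −0.82 to 0.80 for APOA4, and from −0.31 to 0.18 for APOB. Lenvatinib tumors set against H3B-6527 tumors gave 7 members that passed, beside 20.6% of all tested genes higher, 20.5% lower and 41.1% in either direction. In lenvatinib tumors APOC3 fell by 3.16 ± 0.40, APOA5 by 2.81 ± 0.30, APOA4 by 2.34 ± 0.39, APOA1 by 1.59 ± 0.20 and APOH by 0.95 ± 0.13 on the log2 scale, and APOM rose by 1.08 ± 0.16 and APOA2 by 1.00 ± 0.26. The APOA2 call was lost in a fit of these 2 groups alone (adjusted p = 0.0535). APOE differed by −0.20 ± 0.16 (adjusted p = 0.35).

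The contrast of combination minus H3B-6527 minus lenvatinib plus vehicle tests whether the effects of both agents add on the log2 scale. No member passed, at an adjusted or an unadjusted p under 0.05, by edgeR, and none passed by DESeq2 or limma-voom. Adjusted p by edgeR ran from 0.917 to 0.997, and 0% of all tested genes passed, or 5.39% at an unadjusted p under 0.05. DESeq2 called 0.114% of all tested genes and limma-voom 0%. The values were −0.85 ± 0.54 for APOA4 and −0.71 ± 0.40 for APOA5 and lay between −0.41 and 0.19 for the other 8. Intervals of the contrast were wide for the members that varied most between tumors, from −2.05 to 0.34 for APOA4 and from −1.56 to 0.74 for APOC3, and narrower for APOB, from −0.45 to 0.25.

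The 10 genes took a similar share of all counts in every group, with a different make-up. They held 3.81 ± 0.13% of counts in H3B-6527 tumors, 3.92 ± 0.12% in lenvatinib tumors, 3.91 ± 0.07% in combination tumors and 3.75 ± 0.16% in vehicle tumors (SD, n = 3). APOB made up 67.0 ± 6.31%, 68.5 ± 0.70% and 61.0 ± 3.37% of these counts in H3B-6527, lenvatinib and combination tumors, and 71.9 ± 0.66% in vehicle tumors. Without APOB, the sum was 13070 ± 3295 CPM in H3B-6527 tumors, 12082 ± 873 in lenvatinib tumors, 15994 ± 1327 in combination tumors and 10010 ± 576 in vehicle tumors. The ratio of combination to vehicle tumors was thus 1.6 without APOB and 1.15 with it. APOA1 held 9.45 ± 2.34% of the family's counts in H3B-6527 tumors and 10.3 ± 1.59% in combination tumors against 2.59 ± 0.22% in vehicle tumors, and APOC3 had 1.91 ± 0.97% and 2.42 ± 0.93% in these groups against 0.137 ± 0.011% in vehicle tumors. APOA2 had 8.33 ± 3.62% in H3B-6527 tumors and 10.2 ± 0.71% in combination tumors, against 16.6 ± 0.20% in vehicle tumors. The shares and sums were not tested.

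Ratios of counts within a library need no scaling between libraries. The count of APOA1 per count of APOA2 was 2.40, 0.957 and 0.745 in H3B-6527 replicates 1, 2 and 3, 0.198, 0.197 and 0.171 in the lenvatinib replicates, 1.23, 1.03 and 0.782 in the combination replicates, and 0.158, 0.166 and 0.144 in the vehicle replicates. All tumors given H3B-6527 exceeded all others in this ratio, and replicate 1 of the H3B-6527 group, with the least APOA2, was the highest. The ratio of APOC3 to APOA1 was 0.194 ± 0.069 in H3B-6527 tumors, 0.0677 ± 0.0044 in lenvatinib tumors, 0.23 ± 0.056 in combination tumors and 0.053 ± 0.00033 in vehicle tumors. Neighbours in the same gene cluster thus differed in how far they rose. APOE per APOB was 0.112 ± 0.030, 0.0965 ± 0.011 and 0.155 ± 0.029 in H3B-6527, lenvatinib and combination tumors, against 0.0712 ± 0.0023 in vehicle tumors. These ratios were not tested, and they do not show which of the 2 genes changed.

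**Figure D3:**
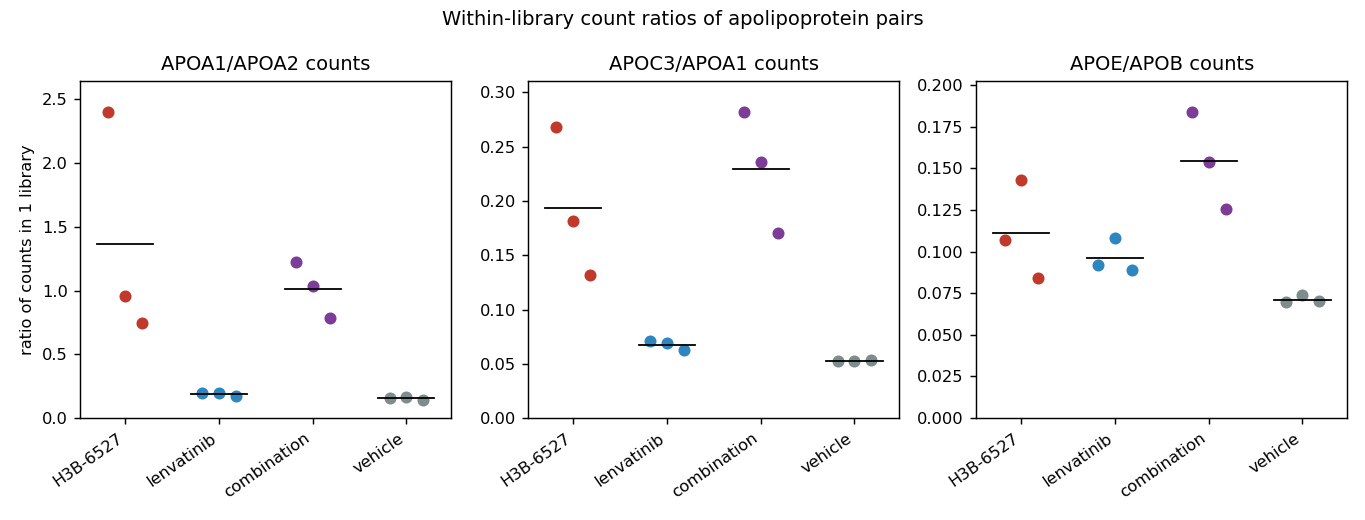
Ratio of counts of 2 genes within each library (y axis, linear from 0) for APOA1 over APOA2, APOC3 over APOA1 and APOE over APOB; points are tumors in replicate order and lines are group means. APOA1 over APOA2 was 0.745 or more in the H3B-6527 and combination tumors and 0.198 or less in the other 6, while APOC3 over APOA1 hardly varied among vehicle tumors (0.053 ± 0.00033).

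Replicates of 1 group varied together for some members. H3B-6527 replicate 3 was the lowest of its group for 7 members (APOA1, APOA4, APOA5, APOC1, APOC3, APOE and APOH), whereas replicate 1 was the lowest for APOA2 and APOM. H3B-6527 replicate 3 also had the smallest library and, at 7.62 CPM, the most DUSP6 of its group. CYP7A1, which catalyses the limiting step of bile acid synthesis, had 15.4, 12.7 and 4.65 CPM in H3B-6527 replicates 1, 2 and 3, and 9.68, 9.88 and 4.29 CPM in the combination replicates. Combination replicate 3, the largest library, had the most DUSP6 and the least CYP7A1 of its group and was the lowest for APOA1, APOA4, APOA5, APOC3, APOE and APOH. Replicate 3 was also the lowest of the lenvatinib and of the vehicle tumors for APOA1, APOA4, APOA5, APOC3, APOE and APOH. ALB was lowest in replicate 3 of every group, with 60490, 34320, 71250 and 34100 CPM in H3B-6527, lenvatinib, combination and vehicle tumors. DUSP6 was not the highest there in lenvatinib (92.9 CPM) or vehicle tumors (71.1 CPM). The part of library size, of the DUSP6 level and of sample order in these differences was not tested. As a description over the 12 libraries, deviations from the group means correlated at r = 0.925 for APOA1 and APOC3, 0.943 for APOA1 and APOA4, and 0.894 for APOA2 and APOM, but at 0.00257 for APOA1 and APOA2 and −0.183 for APOA1 and APOB. All genes of a library share its RNA and its depth.

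For each member, the other tested gene with the closest profile was taken by Pearson's r of log2 CPM over the 12 libraries, as a description of libraries that fall into separate groups. It was FGG, a fibrinogen chain, for APOC3 (r = 0.997), DGAT2, an enzyme of triglyceride synthesis, for APOA5 (0.996), SERPINA4, a plasma protease inhibitor, for APOA1 (0.994), VCAM1, an adhesion molecule, for APOH (0.992), and ZFYVE19 for APOA4 (0.99). For APOA2 it was RPL23A, a ribosomal protein gene with near-identical pseudogene copies that can share its reads (0.99). RPL23A had 594, 1130 and 971 CPM in H3B-6527 replicates 1, 2 and 3, 1627, 1660 and 1604 CPM in the lenvatinib replicates, 1096, 1176 and 1179 CPM in the combination replicates, and 1532, 1471 and 1472 CPM in the vehicle replicates, with the same low replicate 1 as APOA2. The closest gene was SIVA1 for APOE (0.98), BSG for APOM (0.974), CDK5RAP3 for APOC1 (0.944) and TPMT for APOB (0.877).

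Overlapping transcripts could add reads to a gene where counting splits them. APOA1-AS, antisense to the member APOA1, had at most 2.01 estimated counts in any library. The read-through transcript APOC4-APOC2, which joins APOC4 and APOC2, neither of them a member, had at most 63.4. The sources used here do not say whether counting used strand.

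The lists that follow are read against the background given above, 25.2% of all tested genes higher and 24.3% lower in H3B-6527 over vehicle tumors, and 19.1% higher and 20.9% lower in combination over lenvatinib tumors. The other apolipoprotein genes gave a mixed picture. Of 17 listed, 12 could be tested, and in H3B-6527 over vehicle tumors 6 rose and 3 fell, with a median log2 fold change of 0.44 against 0.01 over all tested genes. The rises included SAA4, an HDL protein made constitutively by the liver (1.92 ± 0.24), LPA, which encodes apolipoprotein(a) (1.62 ± 0.20), and APOL2 (1.22 ± 0.14). The 3 that fell, named after their values were seen, were APOD (−1.26 ± 0.41) and APOC4 (−0.88 ± 0.31), each under 1 CPM in every group mean, and CLU, or clusterin (−0.53 ± 0.17), with 1136 ± 288 CPM in H3B-6527 tumors and 1641 ± 111 in vehicle tumors. In combination over lenvatinib tumors 5 rose, SAA4 by 2.54 ± 0.25 and LPA by 1.37 ± 0.20 among them, and 1 fell.

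Of the 18 listed genes of assembly and secretion of APOB particles, all tested, 11 rose, 1 fell and 6 did not pass in H3B-6527 over vehicle tumors (median 0.68, against 0.01 over all tested genes), and 12 rose and 1 fell in combination over lenvatinib tumors (median 0.44, against −0.00456). DGAT2, which makes triglyceride, had 119 ± 37.5 CPM in H3B-6527 tumors and 18.1 ± 2.27 in vehicle tumors, a log2 fold change of 2.73 ± 0.22 (adjusted p = 3.58e-06). SMLR1, needed for lipoprotein secretion in mouse liver, rose by 1.62 ± 0.18, SOAT1, which esterifies cholesterol, by 1.00 ± 0.09 and MTTP, the transfer protein that lipidates APOB, by 0.94 ± 0.09. MTTP had 513 ± 47.5 CPM in H3B-6527 tumors, 336 ± 23.6 in lenvatinib tumors, 487 ± 28.1 in combination tumors and 267 ± 13.0 in vehicle tumors. VMP1, also required for lipoprotein release, was the 1 that fell (−0.46 ± 0.08).

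Of 8 genes of lipolysis looked up, 5 were tested and 4 rose in H3B-6527 over vehicle tumors (median 1.43), a direction in which 25.2% of all tested genes passed. They included LIPC, hepatic lipase (1.84 ± 0.27), ANGPTL4, an inhibitor of lipoprotein lipase (1.84 ± 0.20), and LMF1, a lipase maturation factor (0.35 ± 0.12). The same 4 rose in combination over lenvatinib tumors. LPL had 3 counts over the 12 libraries in sum and GPIHBP1, its endothelial anchor, had 0, so neither was tested. Of 8 genes of HDL remodelling 6 were tested and 5 rose, with LCAT at 1.34 ± 0.18, PCYOX1, an oxidase carried on lipoproteins, at 1.03 ± 0.14, PLTP, the phospholipid transfer protein, at 0.89 ± 0.16 and PON3 at 0.77 ± 0.12, and 5 rose in combination over lenvatinib tumors.

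**Figure D4:**
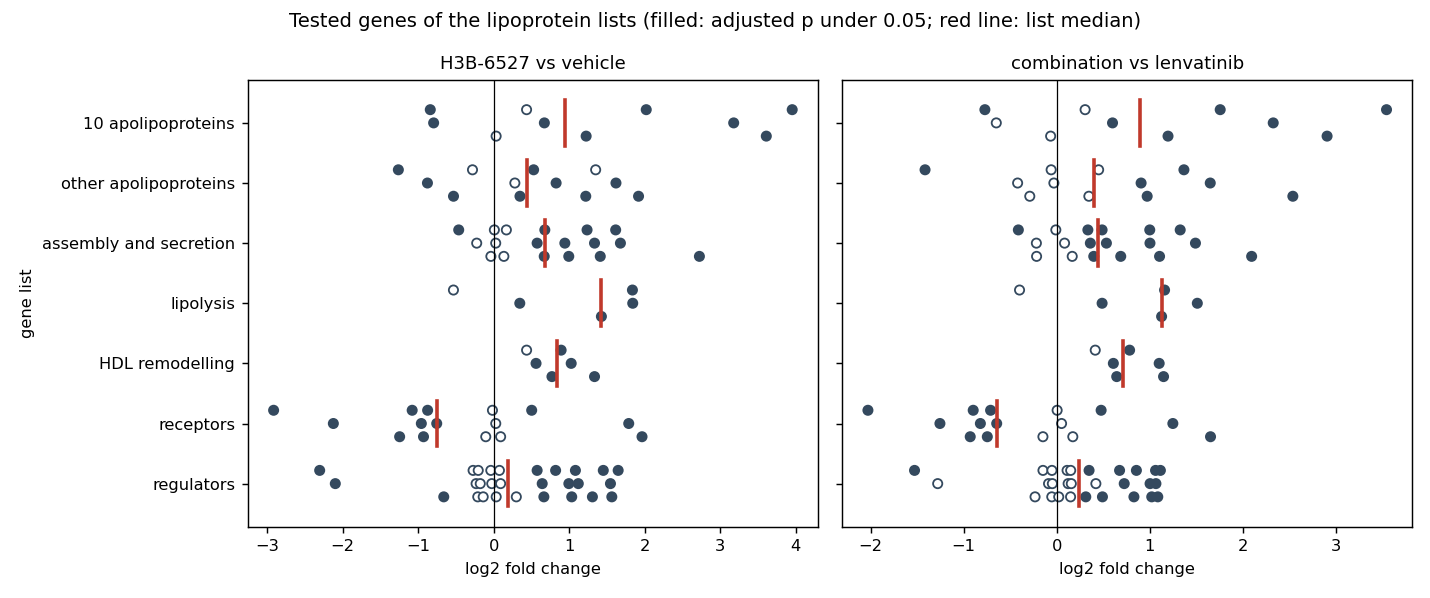
Log2 fold change (x axis) of each tested gene of the 10 apolipoproteins and of the 6 lists (rows) in H3B-6527 over vehicle tumors (left) and combination over lenvatinib tumors (right); filled points passed adjusted p under 0.05 and red lines are list medians. The median was 0.95 for the 10 apolipoproteins and −0.75 for the receptors at left, where the median over all tested genes was 0.01.

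Receptors of lipoproteins fell more often than they rose. Of 15 tested, 8 fell and 3 rose in H3B-6527 over vehicle tumors (median −0.75), and 8 fell and 3 rose in combination over lenvatinib tumors (median −0.65), beside 24.3% and 20.9% of all tested genes lower in these comparisons. LRP8, an APOE receptor, fell by 2.91 ± 0.28 on the log2 scale in H3B-6527 over vehicle tumors, SORL1 by 1.08 ± 0.14 and SORT1, a sorting receptor that binds APOB, by 0.96 ± 0.10, while CD36, a fatty acid and lipoprotein scavenger receptor, rose by 1.97 ± 0.21.

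Of 28 listed regulators of apolipoprotein genes, 13 rose and 3 fell in H3B-6527 over vehicle tumors (median 0.20, against 0.01 over all tested genes, of which 25.2% passed higher and 24.3% lower), and 13 rose and 1 fell in combination over lenvatinib tumors (median 0.23, against −0.00456, with 19.1% higher and 20.9% lower). HNF4A, a nuclear receptor that drives many apolipoprotein promoters, had 468 ± 44.8 CPM in H3B-6527 tumors, 382 ± 24.8 in lenvatinib tumors, 474 ± 6.84 in combination tumors and 300 ± 18.9 in vehicle tumors. It rose by 0.64 ± 0.09 in H3B-6527 over vehicle tumors (adjusted p = 9.93e-05) and by 0.31 ± 0.09 in combination over lenvatinib tumors (adjusted p = 0.0162).

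Rises were larger for ONECUT1, a hepatocyte transcription factor (1.55 ± 0.11), A1CF, a cofactor of APOB mRNA editing (1.45 ± 0.15), MLXIPL, the carbohydrate response factor ChREBP (1.31 ± 0.13), NR1H4, the bile acid receptor FXR (1.12 ± 0.13), and RXRA, the partner of many nuclear receptors (1.08 ± 0.09). NR0B2, the FXR-induced corepressor SHP, fell by 2.30 ± 0.33 in H3B-6527 over vehicle tumors (adjusted p = 1.65e-04). NR0B2 had 6.01 ± 3.04 CPM in H3B-6527 tumors, 35.8 ± 1.63 in lenvatinib tumors, 12.4 ± 4.44 in combination tumors and 29.0 ± 5.12 in vehicle tumors. In lenvatinib over vehicle tumors, and in the contrast of additivity, no gene of the 6 lists passed by edgeR. The smallest p of the contrast in each list belonged to MTTP (−0.41 ± 0.13, unadjusted p = 0.00798), ONECUT1 (−0.43 ± 0.16), APOOL (−0.38 ± 0.14), ANGPTL4 (−0.71 ± 0.28), CD36 (−0.72 ± 0.28) and PCYOX1 (−0.42 ± 0.19), with adjusted p from 0.768 to 0.91.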

How the data were processed

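Tumor RNA of 12 libraries was analysed, 3 per group, each run on 4 lanes. The authors deposited estimated counts (expected counts) summed to gene symbols, without scaling, per the file headers. STAR, kallisto, GRCh37 and GRCm38 are named in the submitters' processing notes, and versions, roles and the removal of mouse reads are not given in the sources used here.

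Counts were rounded, genes were kept by filterByExpr, and edgeR 4.0.16 (R 4.3.3) fitted all 12 libraries with 1 mean per group, using TMM factors and its robust, 2-sided quasi-likelihood F-test. The Benjamini-Hochberg adjustment covered the 15836 tested genes, with a threshold of 0.05. Alternatives used DESeq2 1.42.0, limma-voom 3.58.1, other scalings and filters, fits of 2 groups, and each library left out. The steps were tested on simulated data. Each tumor came from its own mouse, and library totals were 23.8 to 40.9 M counts. The labels give no batch.

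The members and lists were chosen with earlier results of these data known. Named genes are all members, up to 4 per list with the smallest p in H3B-6527 over vehicle and in the contrast of additivity, 8 genes by name, the closest gene to each member, and DUSP6, CYP7A1 and ALB. Exceptions are stated, and some genes named by this rule are not reported here. Sequences, gene coordinates and levels per coding length are not reported here, since no human reference was used here.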

Additional observations from a re-analysis of the deposited data

How the results depend on the processing

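The number of members that passed stayed within 1.5 times under the alternatives run, except between lenvatinib and vehicle tumors, where 0 passed with all 12 libraries and 2 in a fit of these groups alone, which called 160 of all 15836 tested genes (1.01%). With 1 library left out, 7 to 9 members passed between H3B-6527 and vehicle, beside 40.2% to 52.9% of all tested genes. Between combination and vehicle 6 to 9 passed, beside 41.3% to 55.3%. Between combination and lenvatinib 7 to 9 passed, beside 29.3% to 47%. Between lenvatinib and H3B-6527 7 passed, beside 30.8% to 46.3%. In the other comparisons 0 members passed, beside at most 0.284% of all tested genes.

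The summed level of the 10 genes was 1.1 times as high in H3B-6527 as in vehicle tumors (1.01 with library totals, 1.31 without APOB), 1.08 times in lenvatinib over vehicle tumors (1.21 without APOB), 1.15 times in combination over vehicle tumors (1.04 with totals, 1.6 without APOB), 1.05 times in combination over H3B-6527 tumors (1.22 without APOB) and 1.07 times in combination over lenvatinib tumors (0.999 with totals, 1.32 without APOB).

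Signs changed only for log2 fold changes that had not passed. APOB in lenvatinib over H3B-6527 tumors had 0.00077 in the reported fit, −0.00101 with RLE size factors and with DESeq2, and −0.00766 with the stricter filter, and with library totals it had −0.0848 in H3B-6527 and −0.00946 in lenvatinib over vehicle tumors. APOA4 in combination over H3B-6527 tumors had 0.0263 with limma-voom and 0.000982 in the fit of these groups. With 1 library left out, combination over H3B-6527 tumors ran from −0.0396 to 0.348 for APOA1, −0.317 to 0.236 for APOA4 and −0.139 to 0.261 for APOA5. APOB ran from −0.0715 to 0.0248 in combination over vehicle and −0.0312 to 0.0363 in lenvatinib over H3B-6527 tumors, where APOC1 ran from −0.301 to 0.2. The contrast of additivity ran from −0.123 to 0.565 for APOA2, −0.288 to 0.2 for APOC1, −0.212 to 0.106 for APOE, −0.137 to 0.0658 for APOH and −0.154 to 0.256 for APOM. The cause was not tested.

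No paired analysis was possible because the labels give no replicate numbers, and the numbers used here follow sample order. The levels per coding length that were planned were not run. With 3 tumors per group, differences that lie within the intervals given are not excluded. The smallest detectable difference was not computed. A floor of 3 counts was 0.126 CPM in the smallest library.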
